A study of Homo sapiens with 5 samples.

Results

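The 3 copies of the microRNA gene MIR3180 that the study lists on the short arm of chromosome 16 carried a BG4 peak in every replicate of C4-2 cells. The copies are nearly the same in sequence, so reads can be shared between them, and separate presence at each was not tested. The members are the windows in the study's list of 1303 gene windows whose name starts with MIR3180 or hsa-mir-3180, together with the window of PKD1P1. The paper describes this list as gene regions of G4s specific to prostate cancer, after comparison with HepG2 and K562 cells. There were 7 such windows, and overlapping windows join them into 3 copies, which are named here after MIR3180-1, MIR3180-2 and MIR3180-3. Fold enrichment was known when the members were chosen, and the windows were listed because they hold peaks, so the peak values are given as a description and were not tested.

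BG4 ChIP-seq maps G-quadruplexes (G4s), four-stranded structures of guanine-rich DNA, with an antibody that binds the folded form. C4-2 is an androgen-independent line of human prostate cancer cells. The 4 libraries, labelled only as replicates of 1 group, came from formaldehyde-fixed C4-2 cells immunoprecipitated with BG4, and no treatment is named. The study's methods call them biological replicates, without saying what was kept separate. The input library was not analysed here. One peak list per replicate was used, with 8036, 6192, 6805 and 4427 peaks for replicates 1 to 4. The lists hold no read counts, so the depth behind each value is unknown.

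MicroRNAs are cut from RNA hairpins and pair with messenger RNAs mainly through their seed, bases 2 to 8 from the 5′ end. The hairpins of MIR3180 lie just before the start of truncated copies of PKD1, the gene of the kidney protein polycystin-1. These pseudogenes (PKD1P1 and its relatives) arose when the front part of PKD1 was duplicated several times within the short arm of chromosome 16. Sequence in such duplicated blocks is nearly the same from copy to copy, so a short read often fits several places.

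RefSeq (GRCh38.p14) lists 5 MIR3180 genes, and all 5 matched by symbol. The hairpins are shown because the 3 listed copies cannot be told apart by them. MIR3180-1 and MIR3180-3 have the same hairpin of 94 bases, and the 88 bases given for MIR3180-2 lie inside it without a mismatch. MIR3180-4, which has no window in the list, is given with a longer hairpin of 153 bases that starts further into the element. All sequences are written 5′ to 3′.
MIR3180-1: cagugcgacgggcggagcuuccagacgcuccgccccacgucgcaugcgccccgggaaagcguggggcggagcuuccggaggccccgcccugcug
MIR3180-4: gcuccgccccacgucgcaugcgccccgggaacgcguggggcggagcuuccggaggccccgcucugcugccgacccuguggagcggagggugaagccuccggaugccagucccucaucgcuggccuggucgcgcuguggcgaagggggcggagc

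The mature microRNAs fall into 2 seed groups, and the capitals mark the seed. The 3p arm and the microRNA given for MIR3180-4 and MIR3180-5 share the seed GGGGCGG, which is itself rich in guanine. The 5p arm has a seed of its own.
hsa-miR-3180-3p: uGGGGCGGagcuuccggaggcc
hsa-miR-3180: uGGGGCGGagcuuccggag
hsa-miR-3180-5p: cUUCCAGAcgcuccgccccacgucg

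The 94 bases of the MIR3180-1 hairpin matched hg38 exactly 3 times on the main chromosomes, always on chromosome 16. The matches were 14911220 to 14911313 on the plus strand, 16309875 to 16309968 on the plus strand and 18402178 to 18402271 on the minus strand. A further 3 matches lay on an alternate sequence of chromosome 16. Around the 3 main matches, 2050 bases were the same in all copies without a single difference, made of 1239 bases before the hairpin and 811 bases from its first base on. Within 2 kb on either side, 9 differences separated MIR3180-1 from MIR3180-2, 9 separated MIR3180-1 from MIR3180-3, and 4 separated MIR3180-2 from MIR3180-3. The element at MIR3180-4 was less alike, with 23 differences from each of the 3 copies over the 1001 bases centred on the hairpin start.

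The peak positions are on GRCh37 (hg19), the build that the submitters' processing notes name. The last peak of chromosome 1 ended at 249201060, beyond the 248956422 bases of that chromosome in hg38, although the paper's methods name hg38. No position was carried from one build to the other, and only distances from the hairpin were set side by side. The hsa-mir-3180-3 windows of the 3 copies are centred on 15005077, 16403732 and 18496128. The distances between these centres, 1398655 bp and 3491051 bp from the first, were the same as those between the hairpin starts in hg38. The centre of each hsa-mir-3180-3 window is therefore used as the hairpin start, and distances are counted along the hairpin strand, which is plus for the first 2 copies and minus for the MIR3180-3 copy.

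On this scale the listed windows had nearly the same layout in each copy. The windows named MIR3180-1, MIR3180-2 and MIR3180-3 are listed on the strand opposite to the hairpin, and their centre lay 125 bp downstream of its start in all 3 copies. In hg38, GENCODE v44 annotates the hairpins themselves on the strand of the hsa-mir-3180-3 windows. It places the start of an unnamed antisense lncRNA at this distance of 125 bp in each copy (ENSG00000258354, ENSG00000257366 and ENSG00000257563). The PKD1 pseudogene window was centred 466 bp downstream in the MIR3180-2 copy (PKD1P1) and 331 bp downstream in the MIR3180-3 copy (PKD1P5). A window under the clone name RP11-958N24.1 was centred 331 bp downstream in the MIR3180-1 copy, the distance at which PKD1P3 starts in hg38. PKD1P5 and the clone window overlap the copies but are not members.

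Each of the 7 member windows held a peak in all 4 replicates. Of all 1303 windows in the list, 12.8% did so, and 49.0% held a peak in at least 2 replicates. The paper filtered this list against other cell lines, so these are not shares of all C4-2 peaks. The 7 windows are not 7 observations, because the windows of a copy hold the same peaks. Peaks of the 4 lists that shared 1 bp or more were joined into merged regions, and the members came down to 3 of these. Because reads can be shared between the copies, these 3 regions may not be separate observations either. Of all 10852 merged regions, 26.1% had a peak in all 4 replicates and 63.0% in at least 2.

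The MIR3180-1 copy (chromosome 16, 15004746 to 15005485) had a fold enrichment at the summit of 22.7, 24.1, 16.6 and 19.4 in replicates 1 to 4. Fold enrichment is the ratio of the signal at the peak summit to the local background, as computed by the authors' peak caller. Replicates 1 and 2 were the high ones in this copy, and replicate 3 was the lowest.

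The MIR3180-2 copy, whose peaks also lie in the PKD1P1 window (16403445 to 16404143), had values of 24.7, 17.1, 20.7 and 16.7. Here replicates 1 and 3 were high, while replicate 2, the highest at MIR3180-1, was close to the lowest.

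The MIR3180-3 copy (18495754 to 18496507) had values of 23.7, 13.4, 15.8 and 9.40. It lay between the other copies in replicate 1 and below both in replicates 2, 3 and 4. Its highest value was 2.52 times its lowest, against 1.45 and 1.47 times in the MIR3180-1 and MIR3180-2 copies.

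**Figure D1:**
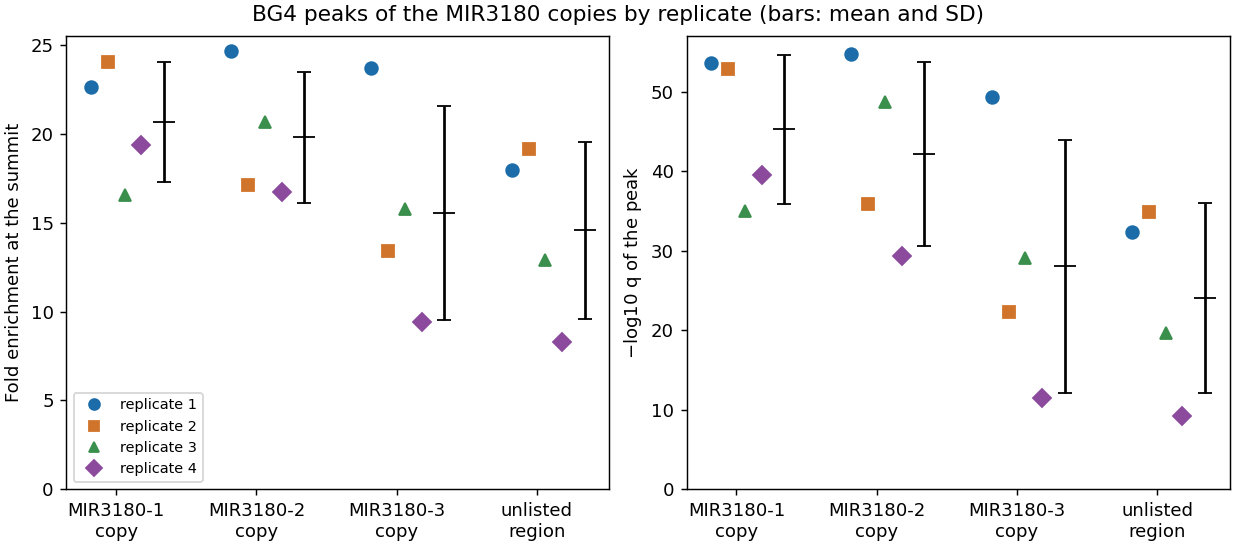
Fold enrichment at the summit (left) and −log10 q of the peak (right) in each replicate, for the 3 MIR3180 copies and for the unlisted region at the distance of MIR3180-4, with the mean and SD of 4 replicates as black bars. Replicate 1 lies close together in the 3 copies, between 22.7 and 24.7, while replicate 4 falls from 19.4 at MIR3180-1 to 9.40 at MIR3180-3.

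The mean of the MIR3180-3 copy was 15.6 ± 6.03 (SD, n = 4), lower than those of MIR3180-1 (20.7 ± 3.37) and MIR3180-2 (19.8 ± 3.70), but its range overlapped both. Within a replicate, MIR3180-2 lay above MIR3180-3 in 4 of 4 replicates, by 0.976, 3.70, 4.92 and 7.35, with a mean difference of 4.24 ± 2.65 (SD, n = 4). MIR3180-1 lay above MIR3180-3 in 3 of 4 replicates, with a mean difference of 5.09 ± 6.08. MIR3180-1 and MIR3180-2 differed by 0.851 ± 4.95, with the sign split 2 to 2, which is smaller than the spread. An exact two-sided sign-flip test on 4 replicates cannot give a p below 0.125, so none was used.

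The spread between the copies of 1 library was of the same order as that between libraries. The SD over the 3 copies within a replicate averaged 3.56, and the SD over the 4 replicates within a copy averaged 4.37. In replicate 1 the highest copy was 1.09 times the lowest, in replicate 3 it was 1.31 times, in replicate 2 it was 1.79 times and in replicate 4 it was 2.06 times. By distance, all 12 peaks lie inside the stretch that hg38 gives as identical in the 3 copies, where a read that falls wholly within it fits each of them. The identity on GRCh37 and in the C4-2 genome was not examined. How the authors treated such reads is not given in the sources used here. Its part in the presence of a peak at each copy and in the differences between copies was not tested. The mean over the 3 copies was 23.7, 18.2, 17.7 and 15.2 in replicates 1 to 4, or 18.7 ± 3.59 (SD, n = 4).

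The −log10 q of the peaks did not order the copies as fold enrichment did in replicate 1, where MIR3180-3 was above MIR3180-1 in fold enrichment and below it in −log10 q. MIR3180-1 had 53.7, 52.8, 35.0 and 39.6 in replicates 1 to 4. MIR3180-2 had 54.7, 35.9, 48.7 and 29.4. MIR3180-3 had 49.3, 22.3, 29.1 and 11.4, and lay below MIR3180-1 by 17.2 ± 14.0 and below MIR3180-2 by 14.2 ± 6.38 (SD, n = 4), the lowest of the 3 copies in every replicate.

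Even so, the MIR3180-1 and MIR3180-2 copies were strong within every list, and the MIR3180-3 copy less so. The share of peaks in the same list with a higher fold enrichment was 1.90%, 1.18%, 5.47% and 1.85% for MIR3180-1 in replicates 1 to 4. It was 1.31%, 4.34%, 2.45% and 3.12% for MIR3180-2. For MIR3180-3 it rose from 1.56% in replicate 1 to 10.4%, 6.52% and 22.4% in replicates 2, 3 and 4. Ordered by mean fold enrichment, the copies ranked 120, 136 and 330 of the 2834 regions found in every replicate, where the median region had 9.62.

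**Figure D2:**
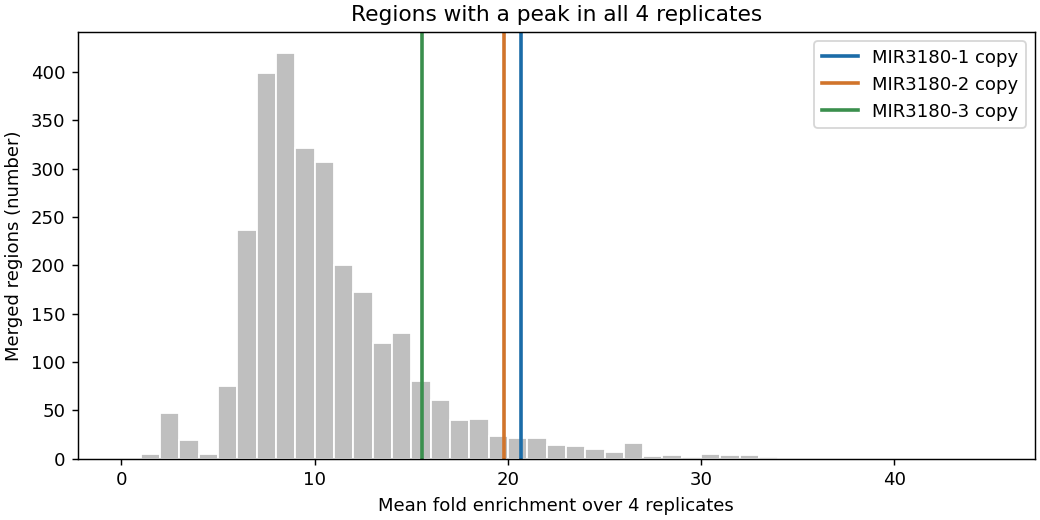
Number of merged regions with a peak in all 4 replicates by their mean fold enrichment over the replicates, in bins of 1, with the 3 MIR3180 copies as vertical lines. The copies lie at 15.6, 19.8 and 20.7, to the right of the median of 9.62.

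The peaks of the 3 copies covered the same part of the element. Over the 12 peaks, widths ran from 449 bp to 733 bp, with means of 625 ± 70.4, 625 ± 91.6 and 592 ± 125 bp (SD, n = 4) for MIR3180-1, MIR3180-2 and MIR3180-3, against list medians of 368 to 402 bp. The stretch from −165 to 261 bp lay inside all 12 peaks, with negative distances upstream of the hairpin start. Each of the 12 peaks thus covered both the hairpin start and the opposite-strand centre, and no peak reached beyond −379 or 411 bp.

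Summits lay between −28 and 129 bp. In the MIR3180-1 copy they were at 59, 119, 4 and −28 bp in replicates 1 to 4, the widest spread of the 3 copies. In the MIR3180-2 copy they were at −7, 39, 37 and 10 bp, all close to the hairpin start.

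In the MIR3180-3 copy the summits were at 119, 129, 120 and 36 bp, so those of replicates 1, 2 and 3 came within 6 bp of the opposite-strand centre. The MIR3180-2 summit minus the MIR3180-3 summit was −81.3 ± 41.4 bp, and the MIR3180-1 summit minus the MIR3180-3 summit was −62.5 ± 43.3 bp (SD, n = 4), so that those of MIR3180-3 lay further downstream in 4 of 4 replicates. Of all 12 summits, 4 were nearer to the opposite-strand centre than to the hairpin start, 3 of them in the MIR3180-3 copy and 1 in the MIR3180-1 copy. These distances are smaller than the 100 to 500 bp fragments to which the chromatin was sheared.

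**Figure D3:**
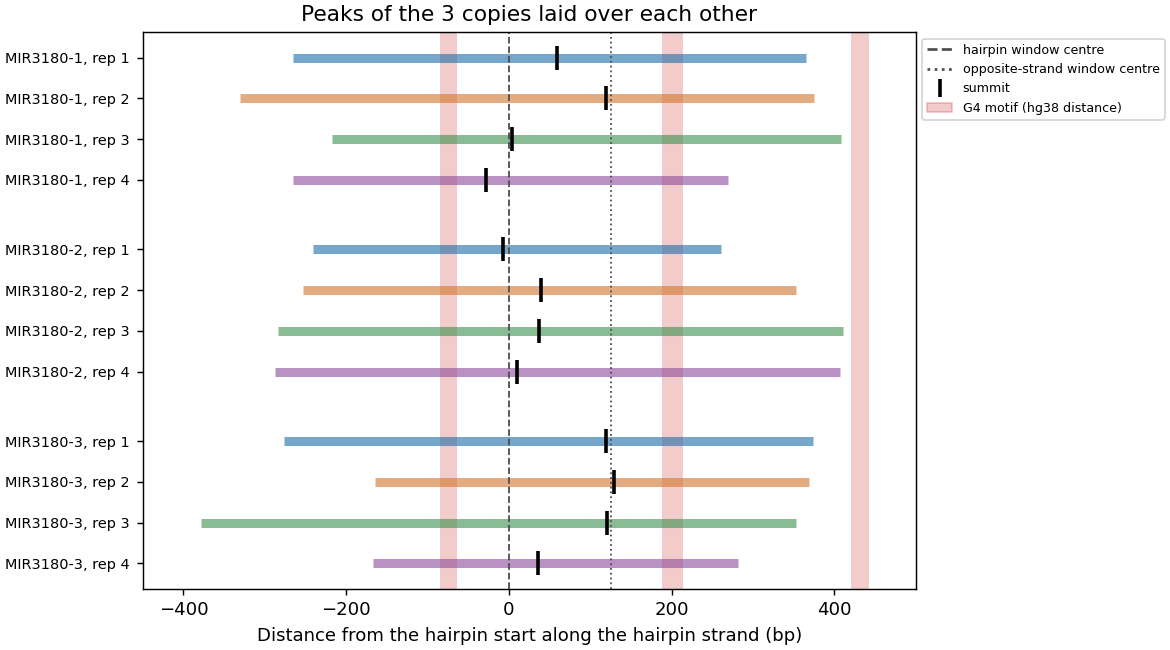
Extent (bars) and summit (black ticks) of the 12 peaks in bp from the hairpin start along the hairpin strand, coloured by replicate, with the centres of the hairpin window at 0 and of the opposite-strand window at 125 and, in red, the G4 motifs at their hg38 distances. All peaks cover the motifs at −85 to −64 and 188 to 214 bp, none reaches the one at 421 to 443 bp, and the MIR3180-3 summits of replicates 1 to 3 sit at the dotted line.

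The hairpin region of hg38 holds several G4 motifs, shown here because they lie under the peaks by distance. A G4 motif was taken as 4 runs of at least 3 G separated by loops of 1 to 7 bases and was searched on both strands within 500 bp of the hairpin start. Each of the 3 copies had the same 3 motifs at the same distances, and the capitals mark the runs. Motifs 1 and 2 lie on the strand opposite to the hairpin, at −85 to −64 bp and at 188 to 214 bp, and motif 3 lies on the hairpin strand at 421 to 443 bp. At MIR3180-1 their hg38 positions on chromosome 16 are 14911135 to 14911156, 14911408 to 14911434 and 14911641 to 14911663. The first 2 fall in the stretch that all 12 peaks share, and the third lies outside every peak.
Motif 1: GGGcGGGaagcggtGGGcaGGG
Motif 2: GGGcggacGGGGcgaGGGGGGGcGGGG
Motif 3: GGGcGGGcctGGGGacggcGGGG

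For comparison, 13.7% of 81706 windows of 1001 bp along chromosome 16 in hg38 held at least 1 such motif, and 1.43% held 3 or more. Of 35116 RefSeq promoter sequences, which at 300 bp are shorter, 25.0% held at least 1. Motifs 1 and 3 had the same letters at MIR3180-4 and at MIR3180-5, which lies just upstream of PKD1 itself in hg38, while motif 2 differed in both. Letters alone do not tell whether a motif was folded in the cells.

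Beyond the copies themselves, peak regions lay within 100 kb at 3 places around MIR3180-1, 1 around MIR3180-2 and 2 around MIR3180-3. The median over all merged regions of the chromosomes was 2 other regions within 100 kb, and over those of chromosome 16 it was 4. The shared feature was a region about 77 kb upstream of the hairpin, which was present in all 3 copies at −77.5 kb, −77.3 kb and −77.3 kb. Sequence identity was not examined this far from the hairpin. Whether the 3 places share reads was not tested, so they may not be separate observations.

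This upstream region was weaker than the hairpin peak and was found in 2 replicates at each copy. Upstream of MIR3180-1 (14927402 to 14927776) it had a fold enrichment of 10.9 in replicate 1 and 7.78 in replicate 3. Upstream of MIR3180-2 (16326203 to 16326622) it had 6.81 in replicate 2 and 10.3 in replicate 3. Upstream of MIR3180-3 (18573277 to 18573637) it had 7.49 in replicate 1 and 9.04 in replicate 2. Replicate 4, the shortest list, had no peak at any of the 3 places. In hg38 the genes NOMO1 and NOMO3 start at −77.5 kb and −77.4 kb from the MIR3180-1 and MIR3180-2 hairpins. They encode near-identical membrane proteins of the endoplasmic reticulum and were named after the distances were seen. The start of NOMO2 lies at −159.9 kb from MIR3180-3 in hg38, so the distance that the peaks show on GRCh37 was not found there. In hg38 that stretch holds a further MIR3179 gene (−92.3 kb) and a further MIR3670 gene (−86.1 kb), which the other copies lack. Where NOMO2 starts on GRCh37 was not examined.

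The other neighbours differed between the copies. At 63.8 kb downstream of MIR3180-1, a region with a peak in all 4 replicates (15068538 to 15069192) had a fold enrichment of 14.6, 7.13, 14.6 and 6.32, high in replicates 1 and 3. In hg38 the gene PDXDC1, named after its distance was seen, starts 63.4 kb downstream of that hairpin. The remaining neighbours were peaks of 1 replicate. One began 1.99 kb downstream of MIR3180-1 in replicate 2 (fold enrichment 4.48), where it reached into the windows of the copy and that of a Y_RNA, a small noncoding RNA. The other lay 30.0 kb downstream of MIR3180-3 in replicate 1 (4.26).

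**Figure D4:**
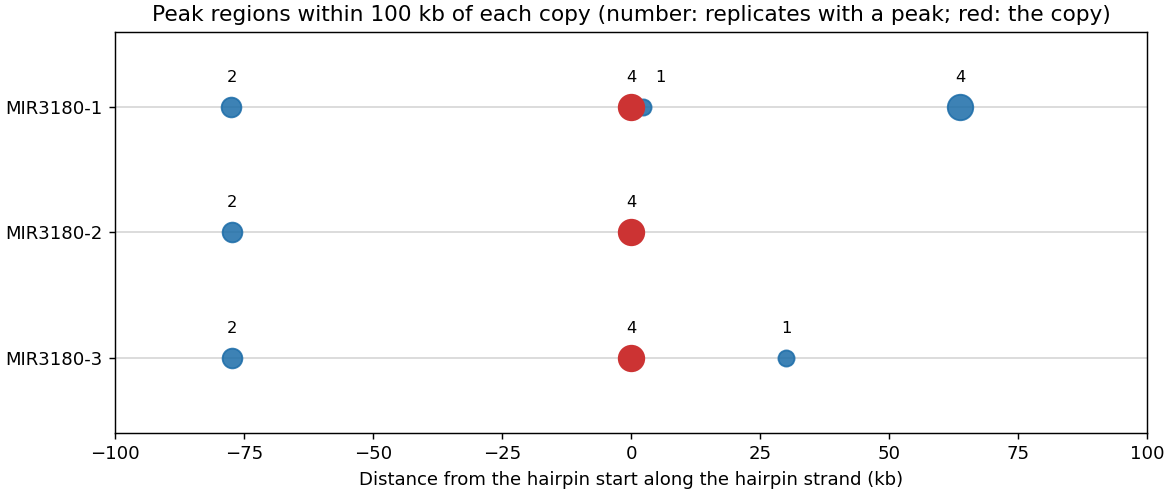
Merged peak regions within 100 kb of each MIR3180 copy, in kb from the hairpin start along the hairpin strand, with the number of replicates that hold a peak above each point and the copy itself in red. A region of 2 replicates stands at about −77 kb in all 3 copies, and a region of 4 replicates stands at 63.8 kb in the row of MIR3180-1.

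A further region, looked for after the data were seen, lay at the distance at which hg38 places MIR3180-4. The hairpin element of MIR3180-4, whose best match to the MIR3180-1 hairpin has 2 differences, starts 243.8 kb downstream of it on the minus strand, next to the pseudogene PKD1P6. In the peak lists, summits lay 243.7, 243.8, 243.8 and 243.6 kb downstream of the MIR3180-1 centre in replicates 1 to 4. That is 101, 48, 46 and 201 bp from the hg38 distance, on the downstream side along the MIR3180-4 strand. This region had a fold enrichment of 18.0, 19.1, 12.9 and 8.30, with a mean of 14.6 ± 4.98 (SD, n = 4), near that of the MIR3180-3 copy. The values of replicate 4 were the lowest at both places. The region overlapped 0 windows of the list. Over the 1001 bases centred on the hairpin start in hg38, 34.5% of 50-base and 7.87% of 100-base stretches of MIR3180-1 also occur at MIR3180-4. Whether this region shares reads with the 3 copies was not tested, so it may not be a separate observation. MIR3180-5 was not located on GRCh37 and has no value here.

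The list has 22 other windows with a microRNA name, most with support from fewer replicates. Of these, 5 held a peak in all 4 replicates, 6 in 3, 5 in 2 and 6 in 1. The 5 were hsa-mir-6723 on chromosome 1, MIR1302-10 on chromosome 15, MIR548AW on chromosome 9 and 2 overlapping MIR4461 windows on chromosome 5. Their mean fold enrichment ran from 6.03 ± 1.26 at MIR1302-10 to 8.46 ± 0.907 at hsa-mir-6723 (SD, n = 4). The highest single value among these 5 windows was 9.70, while the lowest among the 12 peaks of the MIR3180 copies was 9.40. Single peaks of windows with fewer replicates reached 11.6, at MIR9-1 and MIR4482-1 in replicate 1. The groups were chosen on these measurements, so the difference was not tested.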

How the data were processed

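BG4 ChIP-seq of C4-2 cells was analysed in 4 replicates, from 1 peak list each. The submitters' processing notes name bcl2fastq 1.8.4, Bowtie2 2.2.5, SAMtools 1.11, MACS2 2.1.1 and hg19. Fold enrichment is the authors' ratio of summit signal to local background. The authors gave each p-value and q-value as −log10, and the deposited score was not used. Options for duplicate reads, reads that fit several places and the input are not given in the sources used here. Bowtie2 by default reports 1 of several equally good places, chosen at random.

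Members and neighbours were chosen with earlier results of these data known. Where a copy held 2 peaks of a replicate, the higher fold enrichment stood for it. Hairpin sequences came from RefSeq, and hg38 with GENCODE v44 was used for distances, sequence identity and motifs only. The 1 condition allows no test between groups. Named windows are the members, windows within 100 kb and the other microRNA windows with 4 replicates. MIR9-1 and MIR4482-1, with fewer replicates, were named for their high single peaks. Alternatives were each replicate left out, stricter peaks, other overlaps, windows, distances, tolerances and scales. Merging was run on 8000 simulated sites set well apart, and 10 of 10 values were recovered. Some of these are distances undone by the formula that made them. The run therefore checks the code only and not how real peaks merge. Python 3.11.15, numpy 2.4.6, pandas 2.3.3, edlib 1.3.9.post1 and matplotlib 3.10.9 were used.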

Additional observations from a re-analysis of the deposited data

Results flagged for a closer look

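In the MIR3180-3 copy, the summit of replicate 4 lay 36 bp downstream of the hairpin start, 83 bp from the nearest of the other 3, a gap of 0.892 of the whole range. It was the only value this far from its group among 15 groups of 4 values looked at, and chance gives about 1 in 20 groups. The peak of replicate 4 there was also the narrowest of the 12, with 449 bp, and had the lowest fold enrichment, 9.40.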

How the results depend on the processing

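All 7 member windows kept a peak in every replicate used under each alternative. Leaving a replicate out could not change this, since each window held a peak in all 4. The other alternatives were only peaks with −log10 q from 4 up and only the 3000 strongest of each list. At least 50% of the peak inside the window and 1000 bp on either side of the centre were also used. With each replicate left out in turn, mean fold enrichment ranged from 19.5 to 22.0 for MIR3180-1, 18.2 to 20.8 for MIR3180-2 and 12.9 to 17.6 for MIR3180-3. Mean −log10 q ranged from 42.5 to 48.7, 38.0 to 46.5 and 20.9 to 33.6, mean width from 598 to 655, 602 to 666 and 545 to 640 bp, and mean summit from 11.7 to 60.7, 13.3 to 28.7 and 91.7 to 123 bp. The difference of MIR3180-1 from MIR3180-2 ran from −1.18 to 2.51 and so changed sign, while it stayed above 0 from MIR3180-3 (3.24 to 7.14) and for MIR3180-2 from MIR3180-3 (3.20 to 5.32). The count of neighbours was the least stable value. For MIR3180-1 it was 2 to 3 without a replicate, 1 within 50 kb and 5 within 200 kb. For MIR3180-2 it was 1 throughout, apart from 0 within 50 kb. For MIR3180-3 it was 1 to 2 without a replicate, falling to 1 without replicate 1, and it was also 1 with the stricter q, with the 3000 strongest peaks, within 50 kb and with regions of at least 2 replicates. The count of neighbours at the same distance in another copy was 3 with the stricter q, with the 3000 strongest peaks and with a tolerance of 300 or 3000 bp. It was also 3 without each replicate. There it could not fall, because each of these regions has a peak in 2 replicates and 1 was enough. It was not recomputed for the other alternatives, and within 50 kb those regions are out of reach. Of 138 values under alternatives for 21 results, 130 stayed close to the reported value and 8 neighbour counts moved further. Close meant within 1 SD, or within 1.5 times for counts. Where the scale was changed, it meant the same order or sign of the copies. With 4 replicates, leaving 1 out cannot move a mean by as much as 1 SD, so those values stayed close by construction. Taking the peak nearest to the centre returned the same values. The 130 are therefore not a measure of stability. No paired analysis was possible because there is 1 condition, so no conditions could be paired by replicate number, and the copies were compared within each replicate instead. Depth is unknown, so a peak missing from a list can be signal below the threshold.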
